A study of Macaca mulatta with 13 samples.

Results

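The 6 genes that are described here are ones B lymphocytes use at their surface or just beneath it, and were followed by symbol in single leukocytes of the rhesus macaque (Macaca mulatta) colon: MS4A1 (ENSMMUG00000001260), CD79A (ENSMMUG00000047772), CD79B (ENSMMUG00000041327), BANK1 (ENSMMUG00000008441), FCER2 (ENSMMUG00000043304) and CD40 (ENSMMUG00000003683). All 6 were found among the 34628 genes of the deposited count matrix. The study concerns GVHD, graft-versus-host disease, in which T cells of a transplant donor attack the recipient's tissues. Per the labels, 4 thawed colon samples of animals given an allogeneic haematopoietic cell transplant and 4 of untransplanted animals were sorted for living cells that carried the leukocyte protein CD45 and lacked the intravascular CD45 stain. Host and donor cells were sorted apart by the protein MAMU-A001 in 2 transplanted samples and told apart by computation in 2 others. Droplet kits of 10x Genomics, v2 and v3, were used. The labels give 4 host fractions, 2 donor fractions and 3 combined host and donor samples of transplanted animals, and 4 samples of untransplanted healthy controls.

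The barcodes carry a number for their library, but the files do not tie these numbers to the labels. The libraries are therefore named by their barcode numbers, stand in no group, and were not compared as conditions. No p-value is given: the pooled matrix counts as 1 sample, and libraries in no group were not treated as replicates. A statement that a gene was higher or lower in a class of cells refers to the sign of a ratio computed within each library, and the libraries are shown one by one.

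A B cell senses antigen through its receptor, a membrane antibody that carries no signalling tail of its own and depends on the partner chains CD79A and CD79B to pass the signal on. BANK1 is an adaptor inside the cell that links the receptor to kinases and calcium release. MS4A1 is CD20, a membrane protein of mature B cells, FCER2 is CD23, the low-affinity receptor for IgE and a marker of naive and follicular B cells, and CD40 receives help from T cells through CD40LG. In gut lymphoid tissue B cells that meet antigen enter germinal centres, where they divide and mutate their receptor genes. Plasma cells, the antibody-secreting end stage, are known to switch off CD20 and much of the receptor machinery.

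The unit behind each value is the UMI, a tag that marks 1 captured RNA molecule. Of 20606 barcodes kept by the authors, 20567 from 12 libraries were used. The libraries held 29 to 2858 of these cells, and the median cell of a library held between 2814 and 5872.5 UMIs. Libraries 4 and 6 shared 5323 barcodes and library 4 was left out. Other pairs of libraries shared at most 55 barcodes, and 53 used barcodes occurred in more than 1 library, 1 of them a B cell. Libraries 1 to 7 shared 6 to 55 barcodes with each other (4 and 6 aside), libraries 8 to 13 shared 1 to 10, and libraries of the one set and of the other shared 0 to 3. Library 3, which stands apart in several results, belongs to the first set, and libraries 8, 9 and 11 to the second. No doublet caller was run.

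Cells were parted by counts of a few genes. Plasma cells were those with at least 1% of their UMIs from JCHAIN, the joining chain of secreted antibody. B cells were the other cells with at least 2 UMIs of MS4A1 and CD79A together. Among them, cycling B cells had at least 2 UMIs of MKI67 and TOP2A, both made in dividing cells. Of the rest, germinal centre-like B cells had at least 1 UMI of RGS13 or MYBL1, both known from germinal centres, and those left over are called remaining B cells. There were 729 cycling, 592 germinal centre-like and 3290 remaining B cells, and 2959 plasma cells. The gate was thin at its edge: 592 cells that were not plasma cells had exactly 2 UMIs of MS4A1 and CD79A and were counted as B cells, while 1063 had exactly 1 and were not. Since MS4A1 and CD79A chose the B cells, their levels there are given as a description.

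B cells made up 22.4% of the used cells (exact binomial 95% interval 21.9 to 23.0) and were unevenly spread. They were 76.3% of library 3 (interval 74.5 to 78.0), 36.4% of library 8, 39.5% of library 9 and 25.7% of library 11. In library 2 they were 3.39%, in library 12 they were 2.90%, and in the other 6 libraries at most 1.41%. Libraries 3, 8, 9 and 11 thus held 4404 of the 4611 B cells. Cycling cells were 19.7% of the B cells in library 3, 8.06% in library 8, 15.0% in library 9 and 19.1% in library 11, against 5.88% of 85 B cells in library 2 and 1.20% of 83 in library 12. Germinal centre-like cells were 7.32%, 13.5%, 19.7% and 18.9% of the B cells in libraries 3, 8, 9 and 11. None was found in library 2 or library 12, where a count of 0 allows up to 3.53% and 3.61% of B cells, taken as 3 cells of the total, and the exact binomial 95% intervals end at 4.25% and 4.35%. The comparisons of classes were made in libraries with at least 20 cells of each class.

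**Figure D1:**
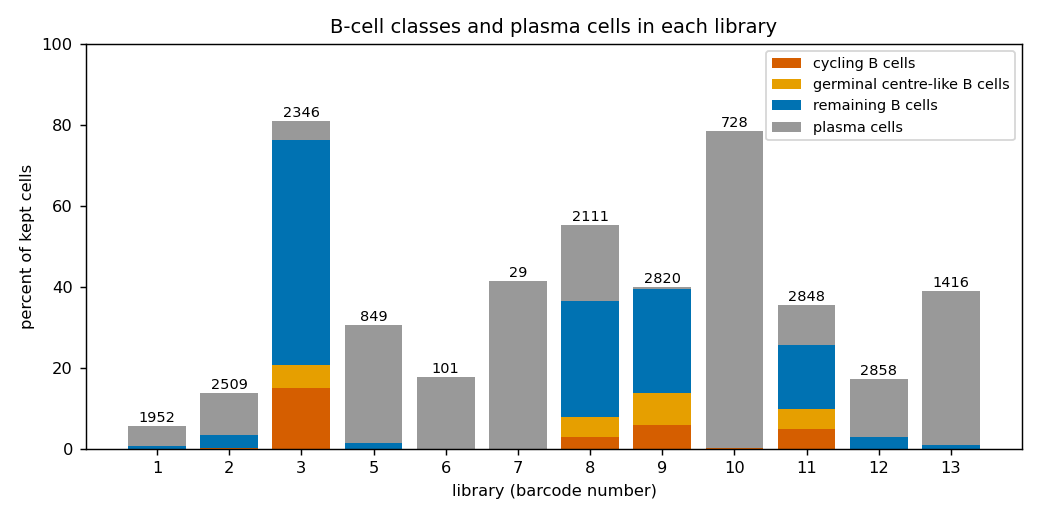
Share of the used cells (percent, y axis) that were cycling, germinal centre-like or remaining B cells or plasma cells in each library (x axis, barcode number), with the number of used cells above each bar. Germinal centre-like and most cycling B cells lie in libraries 3, 8, 9 and 11, and library 10 is mostly plasma cells.

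Levels are in CPM, the UMIs of a gene per 1000000 UMIs of the same cells, summed over a class within a library. They are read across cells for 1 gene at a time and not between genes. B-cell markers were present: each of 8, among them PAX5, FCRLA and VPREB3 and the members MS4A1 and CD79A, which chose the cells, was detected in the remaining B cells of all 6 libraries with 20 or more such cells, with a summed level of 2147 to 5867 CPM, against 0 to 228 CPM in T cells. T-cell RNA was present in the B cells as well. The 8 T-cell markers summed to 318 to 2127 CPM in remaining B cells with 7 or 8 of them detected, against 3144 to 10078 CPM in T cells. Library 12 had the lowest B-cell sum and the highest T-cell sum in remaining B cells. Of its 83 B cells, 39 had exactly 2 UMIs of MS4A1 and CD79A, and 38 had no MS4A1 UMI. Of the B cells, 26.4% had at least 2 UMIs of the CD3 genes, and in the 6 libraries with at least 20 B cells the share ran from 16.9% in library 8 to 51.8% in library 12. The part of these cells in each result was looked at by leaving out every B and plasma cell with a CD3 UMI. In the same remaining B cells, plasma markers summed to 462 to 2068 CPM, NK markers to 43.2 to 820 CPM, myeloid markers to 11.3 to 85.7 CPM, dendritic markers to 0 to 34.0 CPM, epithelial markers to 0 to 8.63 CPM and stromal markers, among them CR2 of B cells, to 78.1 to 241 CPM.

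Where the RNA of each gene lay differed among the 6. B cells held 98.5% of the 27233 MS4A1 UMIs, and plasma cells 0.264%. For CD79B, B cells held 87.0% of 33358 UMIs and plasma cells 7.995%. CD79A was more widely spread, with 69.1% of its 23286 UMIs in B cells and 27.7% in plasma cells. BANK1, with 4106 UMIs, had 64.7% in B cells, 20.6% in plasma cells and 11.3% in cells of no class. FCER2 had 65.8% of 2223 UMIs in B cells and 26.0% in plasma cells. CD40 had 210 UMIs in all, of which B cells held 139 and plasma cells 49. In each of these figures plasma cells count for more through their size, since a median plasma cell held 12088 UMIs and a median B cell 3562.

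BANK1, the adaptor of receptor signalling, had the largest median ratios of the measured members between remaining B cells and each other class of B cells. It stood at 10.1 CPM in cycling B cells of library 3, 61.8 in library 8, 54.8 in library 9 and 66.0 in library 11, against 16.4, 360, 289 and 306 CPM in the remaining B cells of the same libraries. Outside library 3 the 3 cycling values all lie below the 3 remaining ones, with no overlap of their counting intervals, and library 3 is low in both classes. The log2 ratio of cycling to remaining B cells was -0.67 in library 3, -2.52 in library 8, -2.39 in library 9 and -2.21 in library 11, with a median of -2.30. The 95% counting interval in library 3 was 6.50 to 15.1 CPM in cycling cells and 13.1 to 20.3 CPM in remaining cells, which overlap. Germinal centre-like cells had 17.1, 110, 104 and 110 CPM in libraries 3, 8, 9 and 11, between the other classes in libraries 8, 9 and 11 and level with remaining B cells in library 3. Their log2 ratio to remaining B cells was 0.13 in library 3, where the counting intervals overlap, and -1.70, -1.47 and -1.47 in libraries 8, 9 and 11. In cycling against germinal centre-like cells BANK1 was lower in all 4 libraries, with log2 ratios of -0.92 to -0.74. With every cell thinned to 1500 UMIs this last difference held in 3 of 4 libraries.

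FCER2, the low-affinity IgE receptor, ran in libraries 8, 9 and 11 in the same order as BANK1, lowest in cycling and highest in remaining B cells. In library 3 it was lowest in germinal centre-like cells. In cycling B cells it stood at 16.1 CPM in library 3, 18.5 in library 8, 36.9 in library 9 and 44.2 in library 11, against 27.0, 105, 108 and 216 CPM in remaining B cells. The log2 ratios were -0.74, -2.43, -1.55 and -2.28, so that FCER2 was lower in cycling cells of all 4 libraries, by a median of -1.91. Germinal centre-like cells had 12, 47.4, 76.6 and 81.4 CPM, with a median log2 ratio to remaining B cells of -1.10 and a lower value in all 4 libraries. The value in germinal centre-like cells of library 3 rests on 7 UMIs. Without cells holding a CD3 UMI that median was -1.74. When germinal centre-like cells were chosen after thinning to 1500 UMIs it was -0.53, with 3 of 4 libraries lower. Between cycling and germinal centre-like cells FCER2 was lower in libraries 8, 9 and 11 and higher in library 3, with log2 ratios of -1.31 to 0.34.

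CD79B, a signalling chain of the receptor, did not follow BANK1 and FCER2. It stood at 1462 CPM in cycling B cells of library 3, 1050 in library 8, 855 in library 9 and 1074 in library 11, against 2105, 678, 684 and 1316 CPM in remaining B cells. The cycling values were higher in libraries 8 and 9 and lower in libraries 3 and 11, with a median log2 ratio of 0.02 and a range of -0.53 to 0.63, so no direction is given. Over 19 other settings the median ran from -0.29 to 1.90 and had the same sign in 13. Germinal centre-like cells had 1920, 2041, 1373 and 1938 CPM, and their log2 ratio to remaining B cells was -0.13 in library 3, 1.59 in library 8, 1.01 in library 9 and 0.56 in library 11. In cycling against germinal centre-like cells CD79B was lower in all 4 libraries, by a median of -0.77.

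CD79A, its partner chain, had 1133 CPM in cycling B cells of library 3 and 362, 405 and 430 CPM in those of libraries 8, 9 and 11. Germinal centre-like cells had 1234, 613, 617 and 754 CPM, and remaining B cells 1239, 405, 366 and 579 CPM, in libraries 3, 8, 9 and 11. Library 3 was the highest library in each class. MS4A1 stood at 876, 814, 1721 and 1065 CPM in cycling cells, 1438, 1362, 2414 and 1600 CPM in germinal centre-like cells and 1255, 974, 1249 and 1304 CPM in remaining cells of the same 4 libraries. Both genes were used in the gate, and both were lower in cycling than in germinal centre-like cells in all 4 libraries, with medians of -0.68 for CD79A and -0.65 for MS4A1.

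**Figure D2:**
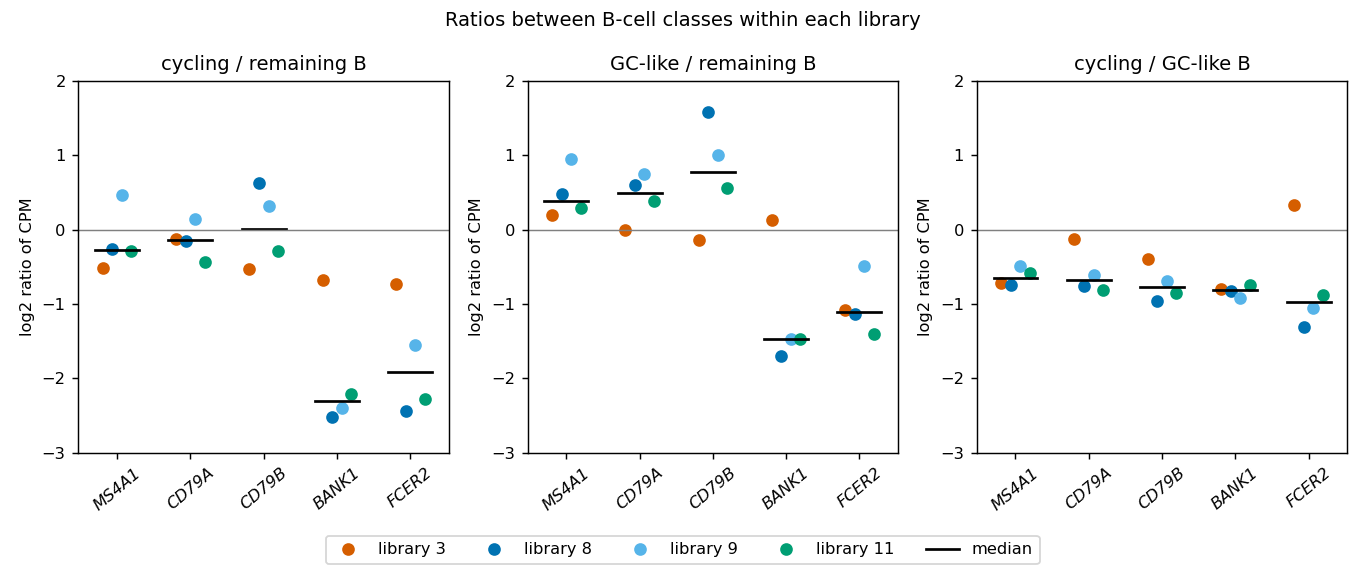
Log2 ratio of CPM between classes of B cells within libraries 3, 8, 9 and 11 (points, coloured by library) for 5 genes, with the median as a bar. BANK1 and FCER2 lie well below 0 in cycling against remaining B cells in libraries 8, 9 and 11 and closer to 0 in library 3, while MS4A1, CD79A and CD79B lie around 0.

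The ratios were read against all genes. Of 6599 genes with a mean of at least 10 CPM in cycling and remaining B cells, 16.9% were lower in all 4 libraries and 41.1% higher, and the median gene had a log2 ratio of 0.27. Among the 3 measured genes that no class rule used, BANK1 and FCER2 were lower in all 4 libraries and CD79B in neither direction. BANK1 ranked 96 and FCER2 ranked 151 from the lowest median ratio. In germinal centre-like against remaining B cells 8.98% of 6467 genes were lower and 30.2% higher in all 4 libraries, with a median of 0.25. FCER2 was lower there in all 4 and ranked 196, and BANK1 was lower in 3 and ranked 134. MS4A1, which chose the cells, was higher in all 4. Without library 3, 3119 genes were higher and 1041 lower in all 3 libraries left, against 1950 and 581 with it, and BANK1 was among the lower and CD79B among the higher genes. In cycling against germinal centre-like cells 17.9% of 6609 genes were lower and 21.6% higher in all 4 libraries, with a median of -0.0012, and CD79B and BANK1 were both lower. Without library 3, 1786 genes were lower there, against 1186 with it. Cycling cells were larger, with a median of 5985 to 10017 UMIs a cell in these libraries, against 2871.5 to 3414.5 UMIs in remaining B cells.

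Shares of cells were compared at equal depth. With each cell thinned to 1500 UMIs, BANK1 was found in 1.70%, 6.45%, 8.98% and 10.7% of cycling B cells of libraries 3, 8, 9 and 11, against 2.22%, 44.3%, 34.3% and 37.4% of remaining B cells. Unthinned, the shares were 5.95%, 30.6%, 35.9% and 41.4% in cycling cells and 5.90%, 64.5%, 57.9% and 59.5% in remaining cells. FCER2 was found after thinning in 1.70%, 3.23%, 8.98% and 6.43% of cycling cells, against 4.29%, 14.8%, 13.9% and 26.9% of remaining B cells, and unthinned in 9.63%, 9.68%, 25.7% and 30.0% of cycling cells, against 8.58%, 24.4%, 25.3% and 43.6%. In T cells, which should lack both genes, the thinned shares pooled over libraries were 0.317% for BANK1 and 0.137% for FCER2, at a median depth of 3074.5 UMIs a cell. The thinned shares were lower in cycling than in remaining B cells in all 4 libraries for both genes, but in library 3 each cycling share rests on 6 of 353 cells. The unthinned shares, which compare deeper cycling cells with shallower remaining ones, were not lower for BANK1 in library 3 or for FCER2 in libraries 3 and 9.

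**Figure D3:**
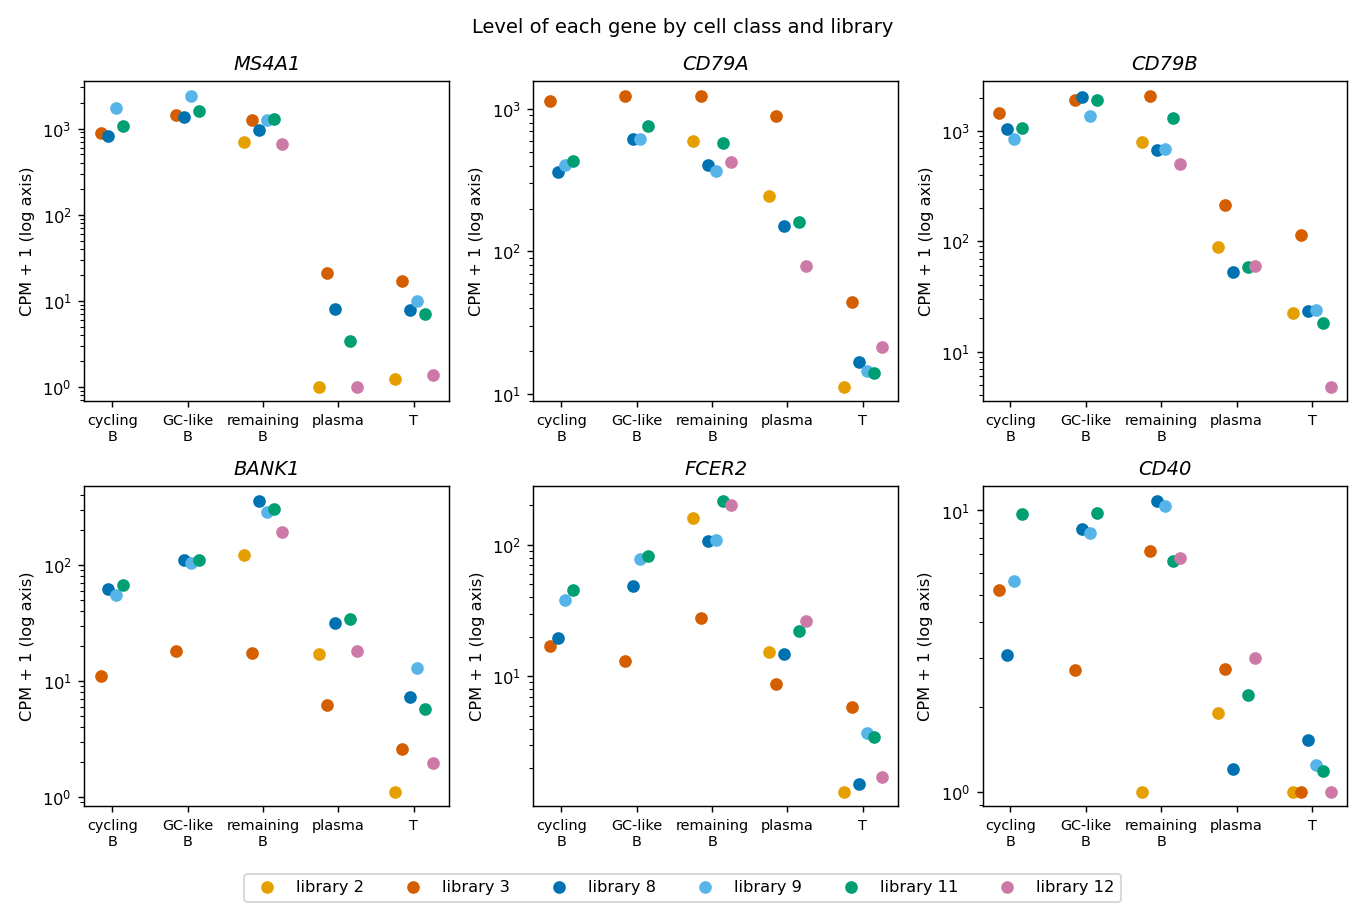
Level of each of the 6 genes (CPM + 1, log axis) in cycling, germinal centre-like and remaining B cells, plasma cells and T cells, 1 point for each library with at least 20 cells of the class among libraries 2, 3, 8, 9, 11 and 12. BANK1 and FCER2 are highest in remaining B cells outside library 3, where BANK1 stands at 16.4 CPM, and MS4A1 is at 0 in plasma cells of libraries 2 and 12.

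CD40, the receptor for T-cell help, was too low to be compared between classes. It had 4.23, 2.06, 4.61 and 8.72 CPM in cycling cells, 1.71, 7.59, 7.30 and 8.77 CPM in germinal centre-like cells and 6.17, 9.85, 9.40 and 5.63 CPM in remaining B cells of libraries 3, 8, 9 and 11, from 1 to 32 UMIs each. The classes overlapped. Thinned to 1500 UMIs, a CD40 UMI was found in 1.21% of all B cells, against 0.0086% of T cells, 1 cell among 11664. Its ligand CD40LG lay on the other side: T cells had 10.6 to 97.5 CPM in the 10 libraries with at least 100 T cells, highest in library 11, and remaining B cells of the 6 libraries with at least 20 of them 0 to 3.13 CPM.

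In plasma cells the members were low, as most genes were on this scale. CD79B stood at 214, 51.9, 57.5, 87.9 and 58.4 CPM in plasma cells of libraries 3, 8, 11, 2 and 12, against 2105, 678, 1316, 806 and 501 CPM in remaining B cells, a median log2 ratio of -3.30. BANK1 had a median log2 ratio of -3.19 and FCER2 of -2.995, and all 3 genes were lower in all 5 libraries. Of 5506 genes measured there, 72.3% were lower in all 5 libraries and 4.47% higher, and the median gene had a log2 ratio of -1.49. The 6 most abundant genes of plasma cells, among them JCHAIN, IGHA2 and IGKC, held 60.4% of their UMIs and 1.59% of those of remaining B cells. With these 6 left out of the totals the median gene moved to -0.19, CD79B to -2.21, BANK1 to -1.93 and FCER2 to -1.75, all 3 still lower in each of the 5 libraries. With B cells called from 1 UMI of MS4A1 and CD79A, 8 libraries entered and the calls ended: CD79B and BANK1 were lower in 6 of 8, with medians of -2.46 and -1.82, and FCER2 in 7 of 8, with a median of -1.97.

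CD79A and MS4A1 behaved unlike each other in plasma cells. CD79A had 897 CPM in plasma cells of library 3, 151 in library 8, 161 in library 11, 243 in library 2 and 78.4 in library 12, against 1239, 405, 579, 593 and 426 CPM in remaining B cells. Its median log2 ratio was -1.43, and -0.30 with the 6 abundant genes left out, where 1 of 5 libraries turned higher. Its level in remaining B cells is set in part by the gate, which used CD79A, so this ratio is a description and is not read against other genes. MS4A1 was found in 1.01% of 2959 plasma cells, and had 19.9, 7.04 and 2.43 CPM in those of libraries 3, 8 and 11 and no UMI in those of libraries 2 and 12, against 656 to 1304 CPM in remaining B cells. Of the plasma cells, 1254 held at least 2 UMIs of MS4A1 and CD79A together and 30 held an MS4A1 UMI. Over 9 libraries with at least 20 plasma cells, BANK1 ranged from 2.42 to 33.5 CPM there with a median of 17.2, and FCER2 from 3.04 to 25.4 CPM with a median of 13.9, against medians of 1.61 and 0.48 CPM in T cells.

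Levels in remaining B cells also differed between libraries. BANK1 stood at 16.4 CPM in library 3 (interval 13.1 to 20.3), 360 in library 8, 289 in library 9 and 306 in library 11, beside 122 CPM in library 2 (88.3 to 164) and 193 CPM in library 12 (149 to 245). Library 3 was thus the lowest, followed by libraries 2 and 12, whose intervals overlap. FCER2 was lowest in library 3 as well, at 27.0 CPM, while libraries 8 and 9 had 105 and 108 CPM and did not differ beyond counting error. Library 11 had 216 CPM, beside 159 CPM in library 2 and 201 CPM in library 12, and the intervals of these 3 overlap. CD79B ran the other way in library 3, which was the highest at 2105 CPM, against 501 CPM in library 12, the lowest. CD40 had no UMI in the 80 remaining B cells of library 2 and 2 in the 82 of library 12.

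T-cell RNA in remaining B cells also differed between libraries, in another order than BANK1 or FCER2. CD3E stood at 145 and 259 CPM in remaining B cells of libraries 2 and 12, against 50.5, 11.8, 22.9 and 16.9 CPM in those of libraries 3, 8, 9 and 11. Without cells that held a CD3 UMI, FCER2 stood at 316 CPM (interval 237 to 414) in 48 cells of library 2 and 542 CPM (419 to 691) in 31 cells of library 12. The same step gave 35.1, 130, 130 and 275 CPM in libraries 3, 8, 9 and 11, so that library 12 was then above all 4, and library 2 overlapped with library 11. BANK1 without these cells stood at 209 CPM in library 2 and 342 CPM in library 12, beside 17.4, 390, 297 and 350 CPM in libraries 3, 8, 9 and 11. Library 3 remained the lowest for both genes.

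**Figure D4:**
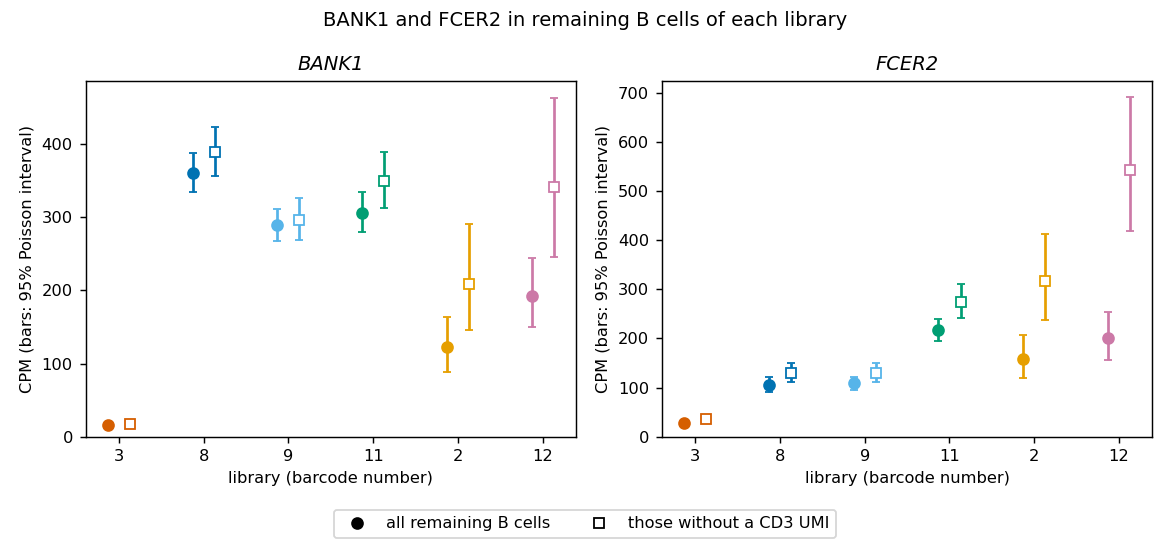
BANK1 and FCER2 (CPM, y axis) in remaining B cells of libraries 3, 8, 9, 11, 2 and 12 (x axis), with exact Poisson 95% intervals of counting error as bars; filled circles are all such cells and open squares those without a CD3 UMI. Library 3 is lowest for both genes, and FCER2 in library 12 stands at 201 CPM in all cells and 542 CPM in those without a CD3 UMI.

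The remaining B cells of library 3 carried other marks too. The 15 germinal centre genes found summed to 2042 CPM there, against 755, 895 and 1038 CPM in libraries 8, 9 and 11, and the 16 genes of cell division to 3092 CPM, against 392, 448 and 456 CPM. STMN1 is in both lists, so these sums are not separate marks. The germinal centre sum was also higher in cycling than in germinal centre-like cells of libraries 3, 8, 9 and 11. It was 4513, 3971, 3955 and 4492 CPM in cycling and 2381, 2777, 2488.5 and 2838 CPM in germinal centre-like cells. Gene by gene this did not hold: of 12 measured genes of the list, 3 were higher and 5 lower in cycling cells in all 4 libraries. The list median was -0.19, against -0.0012 over all genes, of which 21.6% were higher and 17.9% lower. The 11 genes of resting B cells summed to 1621 CPM in library 3, against 3795, 4237 and 3462 CPM. MYBL1, which helped choose the germinal centre-like class, had 4.23 CPM in cycling cells of library 3 and 183, 136 and 140 CPM in those of libraries 8, 9 and 11. The part of this in the low BANK1 and FCER2 of library 3 was not tested.

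Within the remaining B cells, BANK1 and FCER2 were not strongly tied to each other in libraries 8 and 9. Among cells thinned to 1500 UMIs, BANK1 was found in 46.1% of those with an FCER2 UMI and 44.0% of those without in library 8, and in 33.7% and 34.3% in library 9. In library 11 the shares were 45.9% and 34.3%. In library 2 they were 57.9% of 19 cells with FCER2 and 19.7% of 61 without, and in library 12 they were 41.2% of 17 cells and 21.5% of 65. CD79B parted in the same way in library 12, where it was found in 82.4% of cells with FCER2 and 26.2% of cells without, against 52.8% and 51.2% in library 8. T-cell RNA, given above, was highest in these same cells of libraries 2 and 12, and its part in these shares was not tested.

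Cells outside every class also held the members in some libraries. In libraries 8, 9 and 11 a BANK1 UMI was found after thinning in 34.9%, 26.3% and 20.1% of these cells, and a CD79B UMI in 34.9%, 33.5% and 36.1%. In library 3 they were 2.17% and 67.4%, of 46 cells, and in library 12 they were 0.885% and 2.65%. With B cells called from 1 UMI of MS4A1 and CD79A in place of 2, their share of all cells was 27.6%.

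The genes that work beside the members were followed as lists. Of 18 genes of the receptor complex and its near signalling, CD81 and PLCG2 were higher and CR2, VAV3 and PTPN6 lower in cycling than in remaining B cells in all 4 libraries, and the list median was -0.09, against 0.27 over all genes. Of all genes 41.1% were higher and 16.9% lower, so the lower genes of the list are near their share over all genes and the higher ones below it. CR2, the complement receptor that lowers the threshold of the antigen receptor, had 37.2, 65.9, 65.2 and 72.9 CPM in cycling cells, against 43.4, 143, 96.1 and 193 CPM in remaining B cells. VAV3, an exchange factor downstream of the receptor, had 0, 16.5, 15.0 and 11.8 CPM in cycling cells, against 0.386, 70.9, 58.5 and 105 CPM, so that library 3 had almost none in either class. In germinal centre-like cells CD22, CD72, CD81 and VAV1 were higher than in remaining B cells in all 4 libraries and none was lower, with a list median of 0.45, against 0.25 over all genes. These 4 of 18 are below the 30.2% of all genes that were higher. CD22, an inhibitory co-receptor, stood at 158, 216, 218 and 209 CPM there, against 133, 57.1, 97.3 and 164 CPM. Between cycling and germinal centre-like cells 8 of the 18 were lower in all 4 libraries and none higher, with a median of -0.44, against -0.0012 over all genes, of which 17.9% were lower and 21.6% higher. Among them were CD22, CD72, the kinases SYK and BTK, and DAPP1.

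Of the 13 measured genes of the CD40 pathway, 6 were lower in cycling than in remaining B cells in all 4 libraries and none was higher, against 16.9% and 41.1% of all genes. They were CD86, a costimulatory ligand, the factors REL, NFKB1 and NFKB2, the adaptor TRAF3 and TNFAIP3, which damps NF-kB. REL had 71.8, 196, 324 and 201 CPM in cycling cells, against 93.5, 574, 664 and 283 CPM in remaining B cells, a median log2 ratio of -0.76. CD86 had a median of -1.01. In germinal centre-like cells TRAF3 alone was lower in all 4 libraries, by a median of -0.58, and TRAF1, TRAF5, RELB and ICAM1 were higher. Both counts are near the shares over all genes, 8.98% lower and 30.2% higher. The list median was -0.14 in cycling and -0.03 in germinal centre-like cells against remaining B cells, beside 0.27 and 0.25 over all genes.

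Most genes of resting B cells were lower in cycling B cells, as BANK1 and FCER2 were. In cycling cells 9 of 11 measured were lower in all 4 libraries and TCL1A was higher, with a list median of -2.88, against 16.9% lower, 41.1% higher and a median of 0.27 over all genes. FCMR, a receptor for IgM, had 5.92, 6.18, 8.65 and 11.8 CPM in cycling cells, against 26.6, 187, 149 and 269 CPM in remaining B cells. CCR7, which guides lymphocytes to lymph nodes, had a median of -3.16, and GPR183, which positions B cells outside the follicle centre, of -3.93. In germinal centre-like cells 7 of the 11 were lower in all 4 libraries (among them FCMR, CCR7, GPR183 and CD69) and none higher, with a list median of -2.37, against 8.98% lower, 30.2% higher and a median of 0.25 over all genes. Of 4 measured genes of memory B cells, CD44 and TNFRSF13B were lower in all 4 libraries in both classes, with medians of -3.19 and -2.12 in cycling cells.

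Other lists describe the classes. All 16 measured genes of cell division were higher in cycling than in remaining B cells in all 4 libraries, where 41.1% of all genes were higher. MKI67 and TOP2A, which chose the class, are not in the list, but genes of 1 process are not independent of it. Of 12 measured germinal centre genes, without RGS13 and MYBL1, 9 were higher in germinal centre-like than in remaining B cells in all 4 libraries, among them BCL6, the central regulator of germinal centres (median 1.75), and HMCES (median 2.26), and CD38 was lower, against 30.2% higher and 8.98% lower over all genes. In cycling cells 7 of the 12 were higher, among them STMN1, which is also in the division list. An RGS13 or MYBL1 UMI was held by 50.2% of cycling B cells. Division genes were also higher in germinal centre-like cells, with 12 of 12 measured genes higher in all 4 libraries. Among 10 measured transcription factors of B cells, IRF8 and POU2AF1 were higher and IKZF3 and ETS1 lower in cycling cells, while IRF8, POU2AF1, POU2F2 and SPIB were higher in germinal centre-like cells. The share higher in cycling cells is below that of all genes, 41.1%, and the share lower is near the 16.9% of all genes. In germinal centre-like cells 4 of the 10 were higher and 0 lower, not far from the 30.2% and 8.98% of all genes. Of 8 measured genes of antibody secretion, TNFRSF17 and SEC11C were higher and IRF4, DERL3 and SSR4 lower in cycling cells in all 4 libraries. The share higher is below the 41.1% of all genes, and the share lower is above the 16.9%. In plasma cells 8 of 9 measured genes of antibody secretion were higher than in remaining B cells in all 5 libraries, against 4.47% of all genes. JCHAIN, which chose the plasma cells, is not in the list, but genes of 1 process are not independent of it. Of the 18 genes of the receptor complex and near signalling, 16 were lower in all 5 libraries, against 72.3% of all genes.

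**Figure D5:**
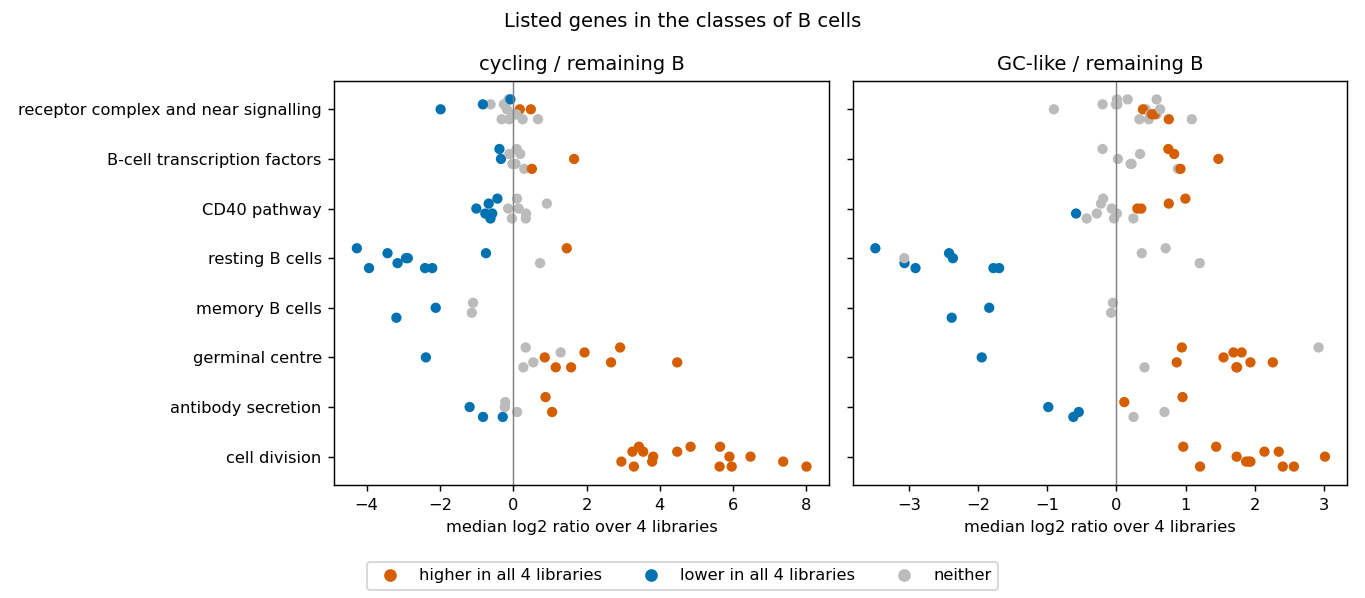
Median log2 ratio over libraries 3, 8, 9 and 11 (x axis) of each measured listed gene in cycling (left) and germinal centre-like (right) against remaining B cells, with 1 point a gene and the colour showing genes higher or lower in all 4 libraries. In both panels most genes of resting B cells have ratios below 0 and genes of cell division above 0. Genes of the receptor complex have a list median of -0.09 in the left panel and 0.45 in the right.

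The genes most like each member were found over 47 units, each 1 class in 1 library with at least 20 cells. MS4A1 followed VPREB3 (Pearson r of log2(CPM + 1) 0.97) and SIGLEC10 (0.96), CD79A followed FCRL2 (0.90) and IGHM (0.85), and CD79B followed FCRL1 (0.91) and PLCG2 (0.89). For BANK1 the nearest named gene was MEF2C (0.88), for FCER2 it was FCRL1 (0.87), and for CD40 it was ST3GAL6 (0.86). Among the members, CD79B and MS4A1 had 0.86, CD79A and CD79B 0.85, BANK1 and FCER2 0.79 and CD79A and BANK1 0.57. These units share libraries and depth, and B cells stand apart from the other classes in nearly all of these genes, so the values describe these cells only.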

How the data were processed

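UMI counts per gene and barcode were deposited by the authors, made with Cell Ranger 3.1.0 per the submitters' processing notes, which also name Seurat 3.1 without a role. Neither labels nor headers name the genome build, the annotation or each library's kit. A second deposited matrix holds natural log values, which turn into whole numbers once the log is undone, and served only to find the cells that the authors kept. The count matrix held 57086 barcodes, 34628 genes and 1.46798e+08 UMIs. Symbols were read from the file for 23811 gene IDs.

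Counts were summed per class and library and divided by all UMIs of the same cells (CPM). Intervals are exact Poisson for CPM and exact binomial for shares, at 95%, and cover counting error only. Ratios were computed within each library with at least 20 cells of both classes, after adding 0.5 UMI to each sum. A gene was measured with a mean of at least 10 CPM, and is called higher or lower when every library went one way. No test was made, since libraries in no group were not treated as replicates. T cells had at least 2 CD3 UMIs and myeloid cells at least 3 UMIs of CD14, CSF1R, CD68 and LYZ. The code (Python 3.11.15, numpy 2.4.6, scipy 1.17.1) was tested on simulated data. The text names the members, listed genes that went one way in every library, up to 10 a list by size, the 10 largest changes each way and the 5 genes most like each member. The genes, classes and lists were chosen with earlier results of these data known. IGHD, CD27, CD24, MEF2B, FKBP11, FAM46C, UBE2C and TUBA1B of the lists had no symbol match. Some listed genes are not reported here by name.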

Additional observations from a re-analysis of the deposited data

Results flagged for a closer look

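In 48 sets of values over 4 to 10 libraries, 8 held a library far from all the others, and in each of the 8 it was library 3. The cut used would set a library apart in about 1 of 20 independent sets by chance alone. The sets here share genes, cells and libraries, so the count of 8 cannot be weighed against that rate. The log2 ratio of BANK1 was -0.67 in cycling and 0.13 in germinal centre-like against remaining B cells of library 3, far above the 3 other libraries. BANK1 was also far below the others in germinal centre-like cells, at 17.1 CPM. CD79A was far above the others in cycling B cells (1133 CPM), in remaining B cells (1239 CPM) and in plasma cells (897 CPM). In plasma cells MS4A1 (19.9 CPM) and CD79B (214 CPM) were far above the others as well. These genes were also highest in library 3 among the T cells of 11 libraries. They stood there at 16.1 CPM for MS4A1, 43.6 for CD79A and 114 for CD79B, against medians of 0.41, 13.5 and 17.1 CPM. These libraries stand in no group, and what sets library 3 apart was not tested.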

How the results depend on the processing

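Ratios of classes were taken within libraries, so the classes of a library are paired. No paired test was made, since libraries in no group were not treated as replicates. BANK1 and FCER2 kept their direction in both comparisons with remaining B cells under all 19 alternatives, with medians of -2.47 to -2.03 and -2.28 to -0.88 in cycling cells and of -2.05 to -1.04 and -1.74 to -0.50 in germinal centre-like cells. The median of CD79B ran from -0.29 to 1.90 in cycling and from 0.56 to 2.69 in germinal centre-like cells, both highest with the mean over cells. The cause of each shift below was not tested.

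With the mean over cells of log2(CPM + 1) in place of sums, 5286 genes were higher and 263 lower in cycling against remaining B cells, 3348 and 300 in germinal centre-like against remaining, 3765 and 192 in cycling against germinal centre-like, and 1070 and 1251 in plasma against remaining B cells. That setting also turned the list medians of cycling against germinal centre-like cells to 0.062 (receptor complex), 0.18 (transcription factors) and 0.19 (CD40 pathway), and left FCER2 lower in 3 of 4 libraries in germinal centre-like cells. With no minimum level, 1907 genes were lower in cycling and 880 in germinal centre-like against remaining cells. Thinning cells to 1500 UMIs gave 712 lower genes in cycling against remaining and 689 in cycling against germinal centre-like cells. Germinal centre-like cells chosen by 2 UMIs of RGS13 and MYBL1 had 954 lower genes, and chosen after thinning 329. In plasma cells, leaving named immunoglobulin genes and JCHAIN out of totals gave 442 higher genes, and leaving out the 6 abundant genes, added after seeing the data, 1154 higher and 1751 lower.

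Leaving out 1 library at a time, counts of higher and lower genes ran from 2823 to 3284 and 1228 to 1484 in cycling against remaining, 2139 to 3119 and 676 to 1041 in germinal centre-like against remaining, 1631 to 1862 and 1365 to 1786 in cycling against germinal centre-like, and 249 to 309 and 3945 to 4475 in plasma against remaining B cells. Without library 3, 3119 genes were higher and 1041 lower in germinal centre-like cells, and 1786 lower in cycling against germinal centre-like cells. B cells were 27.6% or 19.5% of cells with a gate of 1 or 3 UMIs, 15.7% without cells holding a CD3 UMI, and 12.4% of all barcodes. CD40, with 210 UMIs, and FCER2 in library 3 are limited by depth.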

Other observations

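Several genes with the lowest ratios in cycling B cells are known from other leukocytes, and were carried by the remaining B cells. CST3, a protease inhibitor abundant in dendritic and myeloid cells, had 0, 2.06, 0 and 0 CPM in cycling B cells of libraries 3, 8, 9 and 11, against 7.91, 197, 1.23 and 86.9 CPM in remaining B cells. LYZ, lysozyme, had 0.423, 0, 0 and 0 CPM in cycling cells, against 5.40, 67.0, 7.36 and 24.4 CPM. GZMB, a granzyme, had 9.30, 0, 0.577 and 0 CPM in cycling cells, against 90.1, 94.5, 20.9 and 86.3 CPM. ANXA1, an annexin, had 16.9, 2.06, 20.2 and 13.7 CPM, against 72.9, 310, 388 and 319 CPM. The part of other cells within the gate was not tested.

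On the side of T-cell help, IL4, a cytokine known to raise FCER2 in B cells, had 201 UMIs in T cells of library 2 (21.9 CPM) and 30 in those of library 5 (12.4 CPM), against 0 to 1.78 CPM in the T cells of the 9 other libraries with at least 20 of them. FCER2 in all remaining B cells of library 2 stood at 159 CPM, where the libraries ran from 27.0 to 216 CPM. Without cells holding a CD3 UMI it stood at 316 CPM. That lies beside 542 CPM in library 12 and 35.1, 130, 130 and 275 CPM in libraries 3, 8, 9 and 11. A link between IL4 and FCER2 was not tested.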
